A study of Homo sapiens with 12 samples.

Results

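This report describes 31 genes whose RNA was higher in the edited clone K562/SSedit-2 than in both other cell lines of the study, out of 60671 genes in the count table. The genes were chosen on CPM (the count of a gene per 1000000 counts of its sample). A gene was taken if its mean was at least 1 CPM in K562/SSedit-2 cells, if that mean was at least 2 times the mean of each other line, if every K562/SSedit-2 replicate lay above every replicate of both other lines, and if the K/VP.5 mean was less than 2 times the K562 mean. Of the 13327 genes with at least 1 CPM in K562/SSedit-2 cells, the 31 were 0.233%. Because these values chose the genes, their levels are given as a description, without a test.

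K562 is a human leukemia cell line with erythroid features. K/VP.5 is an etoposide-resistant clonal line that had been selected from K562 cells by exposure to the drug, and the edit was not made in it. K562/SSedit-2 is 1 clone, isolated from K562 cells after Cas9 with sgRNA-1 and a repair template had altered the 5′ splice site at the start of TOP2A intron 19, with 2 alleles edited and another left unchanged. TOP2A encodes topoisomerase IIα, the target of etoposide, and the clone was made to ask whether loss of normal splicing at this site gives resistance. All 3 lines were grown in the same medium and sampled in mid-log phase, and each had 4 RNA-seq samples. No source used here says whether the 4 samples of a line were separate cultures, so the spread between them may be technical. As K562/SSedit-2 is 1 clone, effects of the edit and differences that came with cloning cannot be told apart.

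Total counts ranged from 28981722 to 43648830 per sample. TOP2A fell from 398 ± 46.6 CPM in K562 (mean ± SD, n = 4, as for all values with ±) to 189 ± 15 CPM in K562/SSedit-2 cells, with a log2 fold change of -1.07 (SE 0.090, adjusted p = 1.05e-06 in the edgeR quasi-likelihood test across all genes, and -0.96 without K562 replicate 1), and was 280 ± 5.68 CPM in K/VP.5 cells. K562 replicate 1 stood apart: between it and the other K562 replicates, chi-square of the counts over its degrees of freedom was 53.5 to 56.4, against 4.82 to 19.5 for all other replicate pairs within a line. Without it the same rule gave 35 genes, which held 30 of the 31, and PELI2 was the gene lost. Erythroid marker genes summed to 3515 to 4315 CPM in parental K562, 3148 to 3443 CPM in K/VP.5 and 4812 to 5249 CPM in the edited samples. TFRC, the transferrin receptor gene, made up most of these sums, and without it the other 9 markers summed to 1230 to 1358, 1232 to 1490 and 1567 to 1878 CPM in the same order, so that K/VP.5 was then not lower than K562. The megakaryocytic list summed to at most 4.76 CPM and the monocytic and granulocytic list to at most 2.28 CPM in any sample, with GP9, PF4, PPBP and ELANE at or near 0. The lymphoid list, with MS4A1 near 0, summed to 26.5 to 50.5 CPM in parental K562, 9.83 to 13.5 CPM in K/VP.5 and 38.4 to 53.8 CPM in the edited samples, most of it CD3D, and its part in the results below was not tested.

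The 31 genes were of many kinds. They held 21 protein-coding genes, 7 long non-coding RNA genes, 1 T cell receptor constant gene, 1 processed pseudogene and 1 gene of the miscellaneous RNA type, on 14 chromosomes. Among the proteins were membrane and surface molecules (SLC4A1, the anion exchanger band 3 of red cells; CD53 and TSPAN5, tetraspanins; ITGB5, an integrin β subunit; EPHB6, an Eph receptor without kinase activity; CMKLR1, the chemerin receptor; IL1RAP, a subunit of the interleukin-1 receptor), channels (TRPV6, an epithelial calcium channel; RYR2, the calcium release channel of heart muscle) and innate immune proteins (OAS3, an oligoadenylate synthetase induced by interferon; PELI2, a ubiquitin ligase of Toll-like and interleukin-1 receptor signalling). Tetraspanins organize receptors and proteases into membrane microdomains, integrins bind cells to their matrix, and band 3 exchanges bicarbonate for chloride and anchors the spectrin skeleton of red cells. Of 20 p53 target, 18 immediate early, 15 ATF4 target and 20 cholesterol synthesis genes tested, none of which is among the 31, 0 were called between K562/SSedit-2 and K562 cells at 2-fold. Of all genes tested 0.805% were called higher and 1.26% lower, so nothing is read from the count of 0.

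In edgeR's fit all 31 genes were higher at 2-fold and an adjusted p under 0.1 than K562, against 0.805% of the 18626 genes tested, and than K/VP.5, against 6.2%, with 0.311% of all genes higher in both. Nothing is read from these counts, since the rule used the same contrasts. The samples are bulk RNA, so more cells with a transcript and more RNA per cell cannot be told apart. The median log2 fold change over K562 was 1.31 for the 31 genes and -0.01 for all genes tested. The genes were 20.7% of the 150 genes called higher in K562/SSedit-2 than in K562 cells. The other 119 were sorted by the first condition they failed, in a fixed order, so a gene may fail later conditions too. First, 81 had a K/VP.5 mean at least 2 times that of K562. Of the rest, 28 had under 1 CPM in K562/SSedit-2, and the last 10 were less than 2-fold over K/VP.5. Another 37 genes with at least 1 CPM in K562/SSedit-2 were at least 2-fold over K562 without overlap in both derived lines.

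**Figure D1:**
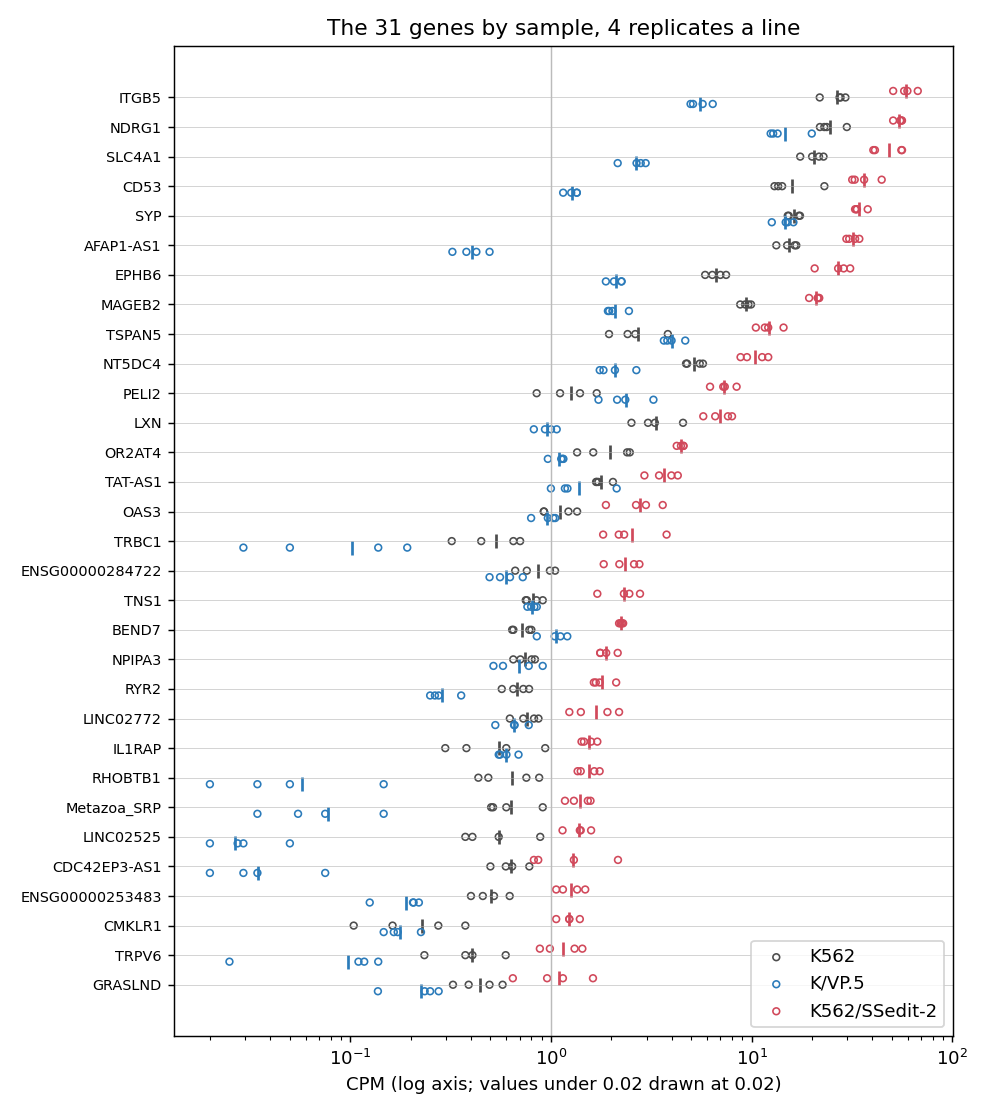
CPM of each of the 31 genes in every sample on a log axis, with 4 open circles per line and a vertical tick at each line's mean; values under 0.02 CPM are drawn at 0.02. The K562/SSedit-2 circles lie to the right of all other circles in every row, and the K/VP.5 circles range from far left of K562 (AFAP1-AS1, CD53) to slightly right of it (PELI2, TSPAN5).

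Levels differed widely. The K562/SSedit-2 means ran from 1.09 CPM (GRASLND) to 58.9 CPM (ITGB5), with a median of 2.52 CPM, and 17 genes had under 3 CPM while 8 had at least 20 CPM. Per kilobase of annotated exon, the highest K562/SSedit-2 levels were those of CD53 (16.9 CPM per kb), MAGEB2 (13.1), SLC4A1 (9.45) and ITGB5 (9.04). The mean exceeded that of the higher of the other lines by 2.01-fold to 5.38-fold, with a median of 2.41-fold, and only CMKLR1, TRBC1, EPHB6, PELI2 and TSPAN5 reached 3-fold. The gap was often narrow, since the lowest K562/SSedit-2 value was 1.05 to 2.84 times the highest value of any other sample, with a median of 1.71.

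The lines other than K562/SSedit-2 were not alike for these genes. In 16 of the 31, the K/VP.5 mean was below 0.5 times the K562 mean, which held for 5.91% of the 13327 genes with at least 1 CPM in K562/SSedit-2 cells. The rule capped K/VP.5 from above, so it did not treat the directions alike, and no more is read from this share. In edgeR's fit 17 were lower and 0 higher in K/VP.5 relative to parental cells, against 6.66% and 8.98% of all genes tested, and without K562 replicate 1 these counts were 16 and 1. In 4 genes (PELI2, TSPAN5, BEND7 and IL1RAP) the K/VP.5 mean was above that of K562. In 2 of these, PELI2 and BEND7, every K/VP.5 replicate lay above every K562 replicate. The 31 genes thus held some that were graded over the 3 lines with K/VP.5 lowest and a few with K/VP.5 in the middle. Others had K562 and K/VP.5 at about the same level.

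**Figure D2:**
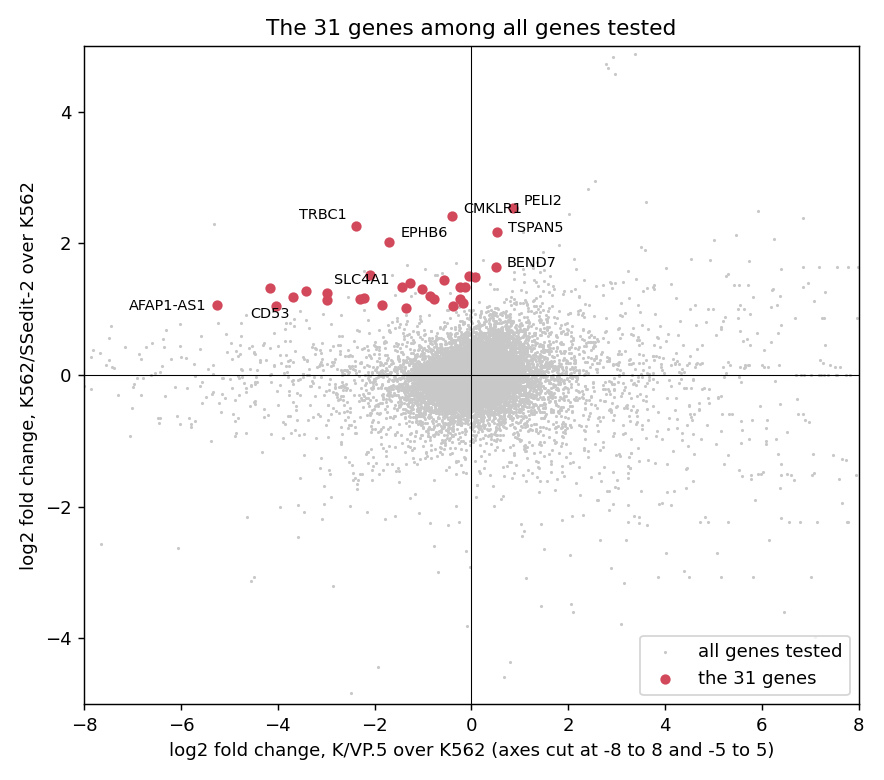
Log2 fold change of K562/SSedit-2 over K562 (vertical) against that of K/VP.5 over K562 (horizontal) from edgeR's fit, with all 18626 genes tested in grey (points beyond the axes are not drawn) and the 31 genes in red. The axes share the K562 samples. The 31 genes lie above 1 on the vertical axis and spread from -5.25 (AFAP1-AS1) to 0.86 (PELI2) on the horizontal axis.

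CMKLR1, the receptor for the chemoattractant chemerin, had the largest fold over the higher of the other lines. It had 0.104, 0.275, 0.163 and 0.375 CPM in K562 replicates 1 to 4, 0.225, 0.165, 0.147 and 0.173 CPM in K/VP.5 and 1.39, 1.06, 1.24 and 1.23 CPM in K562/SSedit-2 replicates. All 4 K562/SSedit-2 values lay well above the others, which overlapped between K562 and K/VP.5. The means differed by 5.38-fold between K562/SSedit-2 and K562, on 173 and 37 counts over the 4 samples of each line, and the log2 fold change was 2.41 (SE 0.28). Without K562 replicate 1 it was 2.20, against 2.46 for TRBC1, so the rank of CMKLR1 depends on that replicate. CCRL2, another chemerin receptor, and RARRES2, which encodes chemerin, differed between these lines by 0.18 and -0.10 on the log2 scale (edgeR, adjusted p = 0.745 and 0.909).

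PELI2 had 1.69, 1.40, 1.11 and 0.850 CPM in parental K562, 1.73, 3.24, 2.35 and 2.14 CPM in K/VP.5 and 7.36, 8.43, 6.21 and 7.23 CPM in the edited replicates. Here K/VP.5 was the middle line, with every K/VP.5 value above every K562 value, and K562/SSedit-2 was 3.09-fold over it and 5.79-fold over K562. The K/VP.5 mean was 1.87 times that of K562, close to the limit of 2, and the gene left the set without K562 replicate 1 or without K/VP.5 replicate 1. The other Pellino genes did not move with it at 2-fold, since PELI1 differed by 0.32 (adjusted p = 0.0616) and PELI3 by -0.31 (adjusted p = 0.124, but 0.0853 once replicate numbers entered as a block) on the log2 scale in the edgeR test.

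IL1RAP had 0.937, 0.298, 0.380 and 0.600 CPM in parental K562, 0.601, 0.550, 0.558 and 0.690 CPM in K/VP.5 and 1.59, 1.46, 1.42 and 1.71 CPM in the edited replicates. K562 replicate 1 was the highest of the 8 samples of the other lines, and K562 and K/VP.5 overlapped. The log2 fold change over K562 was 1.49 (SE 0.28), and 1.89 without K562 replicate 1. IL1R1, the ligand-binding partner of IL1RAP, and SIGIRR, an inhibitory receptor of the family, differed by -0.24 and -0.20 between K562/SSedit-2 and K562 (edgeR, adjusted p = 0.198 and 0.427).

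OAS3 makes 2′-5′ oligoadenylates when double-stranded RNA is present. It had 1.22, 1.35, 0.922 and 0.925 CPM in parental K562, 1.05, 0.797, 1.03 and 0.966 CPM in K/VP.5 and 3.61, 2.98, 2.66 and 1.88 CPM in the edited replicates. K562 and K/VP.5 overlapped, and K562/SSedit-2 replicate 4 was the lowest of its line. Of 15 interferon-stimulated genes tested, only OAS3, whose call the rule fixed, was called higher than K562 at 2-fold, against 0.805% of all genes. Called lower were 0, against 1.26%, and the median log2 fold change of the list was -0.06. Under 2-fold, IFIH1, a sensor of double-stranded RNA, was higher by 0.59 (edgeR, adjusted p = 0.059), IFITM3 was lower, at -0.82 (adjusted p = 0.0344), and ISG15 differed by -0.06 (adjusted p = 0.866).

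Of the surface molecules, TSPAN5 is a tetraspanin that carries the protease ADAM10 to the cell surface. It had 3.83, 2.63, 2.41 and 1.95 CPM in parental K562, 3.81, 4.67, 4.0 and 3.66 CPM in K/VP.5 and 14.4, 11.6, 10.5 and 12.1 CPM in the edited replicates. K562 replicate 1 reached into the K/VP.5 range, and all K562/SSedit-2 values were far above both. The mean was 3.02-fold over K/VP.5 and 4.50-fold over K562. ADAM10 and the related tetraspanins TSPAN14 and TSPAN17 differed by 0.09 to 0.12 on the log2 scale between K562/SSedit-2 and K562 cells. TSPAN33, of the same group, was higher by 0.77 (edgeR, adjusted p = 0.0832), at 0.929 CPM in K562 and 1.59 CPM in K562/SSedit-2 cells.

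CD53, a tetraspanin of white blood cells, had 23.1, 14.2, 13.0 and 13.6 CPM in parental K562, 1.15, 1.35, 1.26 and 1.35 CPM in K/VP.5 and 44.5, 32.7, 31.7 and 36.4 CPM in the edited replicates. The 3 lines did not overlap, with K/VP.5 lowest, and replicate 1 was the highest sample of both K562 and K562/SSedit-2. The mean was 2.28-fold over K562 and 28.4-fold over K/VP.5. The log2 fold change over K562 was 1.19 (SE 0.17), and 1.45 without K562 replicate 1. Of 24 tetraspanins tested, these 2, whose calls the rule fixed, were higher and TSPAN18 lower than K562 at 2-fold (log2 fold change -2.15, edgeR adjusted p = 3.17e-04), against 0.805% and 1.26% of all genes, and the median of the family was 0.04. Under 2-fold, TSPAN13 was higher by 0.53 (22.6 to 32.4 CPM, adjusted p = 2.50e-04), as were CD63 by 0.32 (adjusted p = 0.0447) and TSPAN33, and TSPAN4 was lower, at -0.31 (adjusted p = 0.0439).

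ITGB5, which pairs with integrin αv to bind vitronectin, had the highest mean of the 31. Its values were 27.4, 29.4, 27.8 and 21.9 CPM in parental K562, 5.71, 6.41, 5.11 and 4.97 CPM in K/VP.5 and 67.4, 57.6, 59.8 and 50.8 CPM in the edited replicates. The 3 lines were separate, with K/VP.5 lowest and K562/SSedit-2 2.21-fold over K562. Its partner ITGAV was at 30.6 ± 1.32 CPM in K562 and 30.1 ± 3.19 CPM in K562/SSedit-2 cells (log2 fold change -0.01, edgeR adjusted p = 0.963), and ITGB1 differed by 0.06 (adjusted p = 0.653). Of 59 collagens, laminins and integrins, 2 were higher, ITGB5, whose call the rule fixed, and LAMB3. Lower were 6, and the shares of all genes were 0.805% higher and 1.26% lower.

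SLC4A1 had 22.8, 17.5, 20.04 and 21.7 CPM in parental K562, 2.15, 2.80, 2.67 and 2.97 CPM in K/VP.5 and 40.4, 41.2, 56.2 and 55.8 CPM in the edited replicates. The lines did not overlap, and K562/SSedit-2 replicates 3 and 4 were higher than replicates 1 and 2. The mean was 2.36-fold over K562 and 18.3-fold over K/VP.5, and the log2 fold change over K562 was 1.25 (SE 0.13).

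SLC4A1 was compared with 20 other genes of the red cell membrane and its skeleton and with 10 erythroid markers, and the lists overlap. In K562/SSedit-2 against K562 cells, 17 of the 20 membrane genes were higher at an adjusted p under 0.1 regardless of size, against 4.86% of all genes tested, and 0 were lower, against 7.79%. Their median log2 fold change was 0.65, so most lay under the 2-fold limit, and those that passed it included RHCE (1.41, adjusted p = 6.51e-07) and RHD (1.15, adjusted p = 2.51e-06). Without K562 replicate 1 the count was 19 of 20, against 9.56% of all genes, and with the replicate block 18, against 6.35%. EPB42, a protein that binds band 3, went from 1.53 ± 0.193 to 3.02 ± 0.653 CPM (log2 fold change 0.99, adjusted p = 0.00521), and SPTB, encoding β-spectrin, from 190 ± 36.8 to 303 ± 42.1 CPM (0.69, adjusted p = 0.00109). Of the erythroid markers, 8 of 10 were higher at any size, HBE1, an embryonic globin gene, by 1.76 on the log2 scale (adjusted p = 2.24e-05), while the transcription factor genes GATA1 and KLF1 differed by 0.00 and 0.01 (adjusted p = 0.989 and 0.972).

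In K/VP.5 against K562 cells, 16 of the 20 membrane genes were also higher at any size, against 26.2% of all genes tested, and 0 were lower, against 26.1%. Of the erythroid markers, 4 of 10 were higher and 2 lower at any size, with a median log2 fold change of 0.02. SLC4A1 was lower in K/VP.5, with a log2 fold change of -2.99. Genes much higher in K/VP.5, such as XK (log2 fold change 5.19 over K562, adjusted p = 1.96e-15), could not enter the 31 under the rule. HBM, which encodes a globin, fell just outside it, with 35.2 CPM in parental K562, 39.9 CPM in K/VP.5 and 75.4 CPM in the edited cells.

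**Figure D3:**
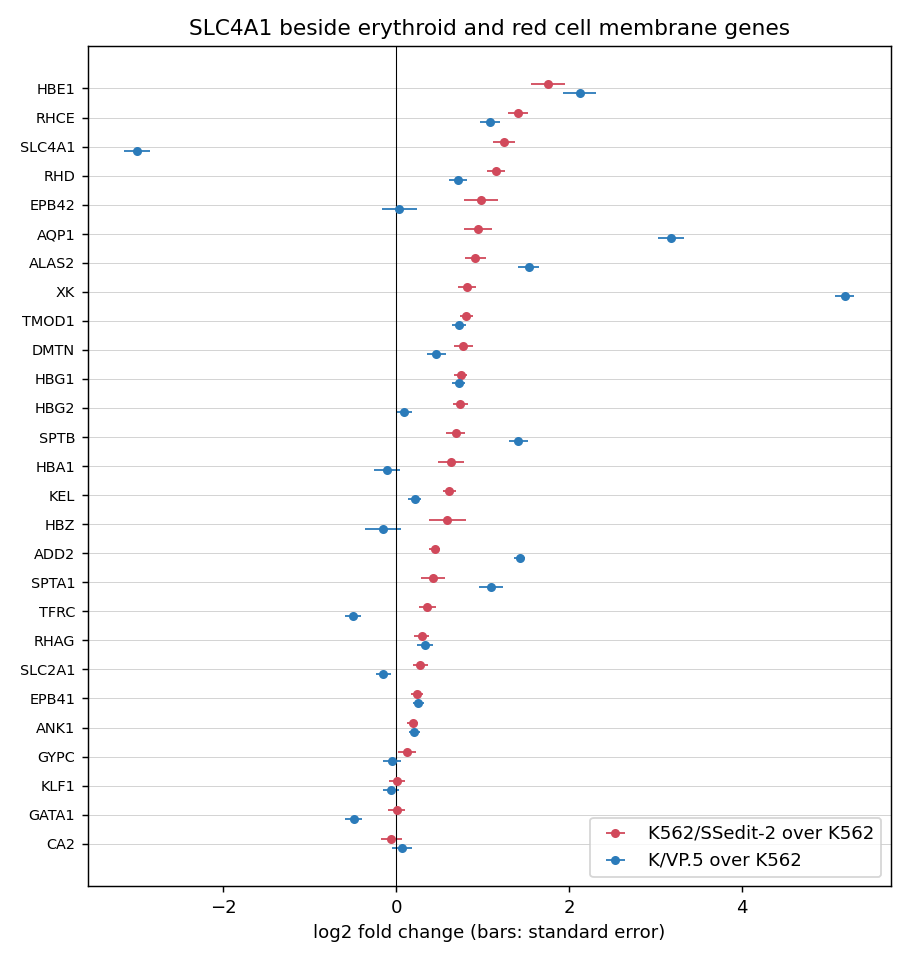
Log2 fold change from edgeR's fit (points, with bars for 1 standard error) of SLC4A1 and of erythroid markers and red cell membrane genes, for K562/SSedit-2 over K562 in red and K/VP.5 over K562 in blue. Most red points lie between 0 and 1.5, and SLC4A1 has the lowest blue point, at -2.99.

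EPHB6, TRPV6 and TRBC1 lay close together on chromosome 7, where the β chain genes of the T cell receptor are found. In GRCh38 with GENCODE 44, TRBC1 spans chr7:142791694-142793368 on the plus strand, EPHB6 chr7:142855061-142871094 on the plus strand and TRPV6 chr7:142871208-142885745 on the minus strand. EPHB6 and TRPV6 end 0.114 kb apart, tail to tail, and TRBC1 lies 61.7 kb before EPHB6. The promoter windows below are from RefSeq (GRCh38.p14), with 250 bases before and 50 bases after a gene start, 5′ to 3′ on the gene's strand. The EPHB6 and TRPV6 windows are shown because these neighbours moved together, and capitals mark GGGCGG (the SP1 motif) and CCAAT (the NFY motif) on either strand. The EPHB6 window is chr7:142862506-142862805, around a start inside the GENCODE gene, and the TRPV6 window is chr7:142885696-142885995.
EPHB6: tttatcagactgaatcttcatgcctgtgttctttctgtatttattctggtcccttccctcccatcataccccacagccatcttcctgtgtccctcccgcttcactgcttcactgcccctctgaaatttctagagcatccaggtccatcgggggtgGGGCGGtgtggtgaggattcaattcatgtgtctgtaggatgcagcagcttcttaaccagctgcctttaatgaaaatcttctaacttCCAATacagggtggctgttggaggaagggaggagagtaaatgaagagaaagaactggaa
TRPV6: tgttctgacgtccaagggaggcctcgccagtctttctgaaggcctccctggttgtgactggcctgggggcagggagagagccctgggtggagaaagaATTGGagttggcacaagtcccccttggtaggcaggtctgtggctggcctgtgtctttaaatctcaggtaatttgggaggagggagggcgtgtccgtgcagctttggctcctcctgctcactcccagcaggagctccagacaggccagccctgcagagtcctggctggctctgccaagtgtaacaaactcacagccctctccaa

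EPHB6 had 6.38, 7.47, 6.99 and 5.87 CPM in parental K562, 2.25, 2.06, 1.88 and 2.24 CPM in K/VP.5 and 31.01, 28.8, 27.0 and 20.6 CPM in the edited replicates. The lines were separate, in the order K/VP.5, K562, K562/SSedit-2, with K562/SSedit-2 4.02-fold over K562 and 12.7-fold over K/VP.5. Of 7 Eph receptors tested, EPHB6, whose call the rule fixed, was the only 1 called higher, and EPHA5 was lower (log2 fold change -1.97, edgeR adjusted p = 1.44e-04), against 0.805% and 1.26% of all genes. EPHB4, the most abundant of those named here at 257 ± 29.5 CPM in K562, differed by -0.14 (adjusted p = 0.264).

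TRPV6 had 0.234, 0.596, 0.407 and 0.375 CPM in parental K562, 0.025, 0.110, 0.118 and 0.138 CPM in K/VP.5 and 1.31, 1.44, 0.989 and 0.882 CPM in the edited replicates. It had the same order of lines as EPHB6 at a far lower level, the K562/SSedit-2 level per kilobase of exon of EPHB6 being 52.0 times that of TRPV6. The counts summed over 4 samples were 65 for parental K562, 13 for K/VP.5 and 164 for the edited clone. Since the strand setting of the counting is not stated, reads that run past the end of EPHB6 could have been counted for TRPV6, and their share was not tested.

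TRBC1, a constant segment of the T cell receptor β chain, had 0.703, 0.321, 0.651 and 0.450 CPM in parental K562, 0.050, 0.192, 0.029 and 0.138 CPM in K/VP.5 and 3.77, 2.18, 2.32 and 1.82 CPM in the edited replicates. K562/SSedit-2 was 4.75-fold over K562, and K/VP.5 had 14 counts in all. TRBC2, which is nearly identical in sequence so that reads may be split between them, had mean levels of 0.105 CPM in K562, 0.006 CPM in K/VP.5 and 0.243 CPM in the edited cells. Variable, diversity and joining segments were counted only in a stretch that began near TRBV28, and variable segments before it were not examined. The 12 segments of this stretch with any count summed to 4, 6, 4 and 6 counts in parental K562 and to 0, 1, 1 and 0 in K/VP.5. They reached 38, 35, 22 and 20 counts in the edited replicates. These segments, which the rule did not use, thus had more counts in every K562/SSedit-2 sample than in any other. CD3G and CD3D, which encode chains of the receptor complex, differed by 0.94 (adjusted p = 9.06e-04) and 0.39 (adjusted p = 0.26, but 0.066 with the replicate block) on the log2 scale between K562/SSedit-2 and K562 in the edgeR test.

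Further along the region, KEL, a blood group gene that is also on the red cell list, went from 20.3 ± 2.06 to 30.7 ± 1.54 CPM (log2 fold change 0.61, edgeR adjusted p = 6.14e-05). LLCFC1, next to TRPV5, differed by 0.50 (adjusted p = 0.371), GSTK1 by -0.22 (adjusted p = 0.043) and CASP2 by 0.00 (adjusted p = 0.991). TRPV5, which adjoins TRPV6, had 3 or 4 counts summed over the 4 samples of each line. Of 5 TRPV channels tested, 2 were higher than K562 at 2-fold, TRPV6, whose call the rule fixed, and TRPV3 (1.46, adjusted p = 0.0105). TRPV4 was lower (-1.52, adjusted p = 0.0157), and the shares of all genes were 0.805% higher and 1.26% lower.

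**Figure D4:**
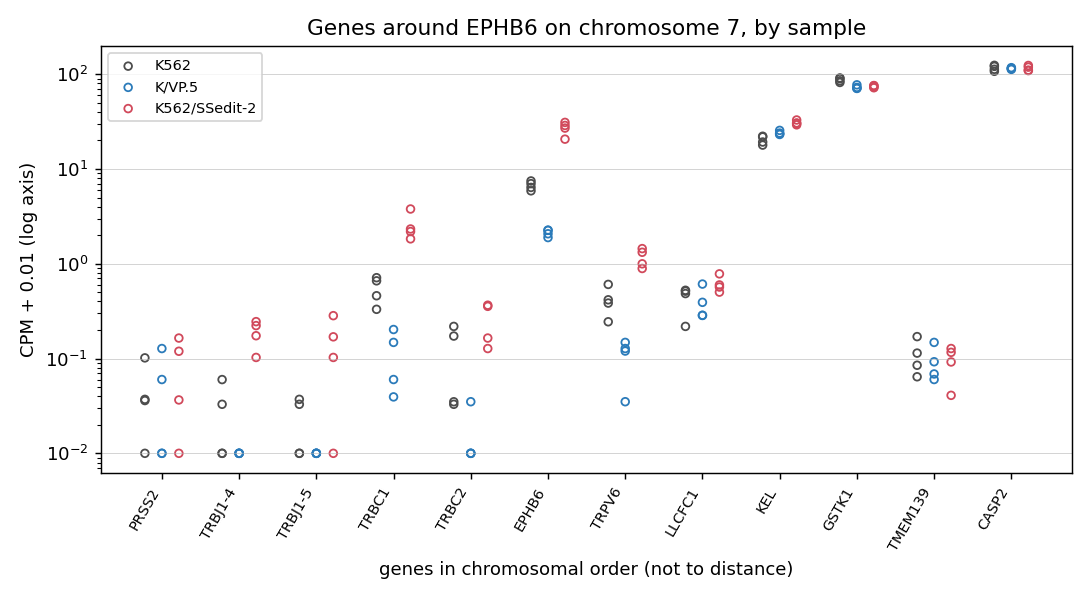
CPM plus 0.01 on a log axis for genes around EPHB6 in chromosomal order (not to distance), with 4 circles per line. The K562/SSedit-2 circles stand above the other lines at TRBC1, EPHB6 and TRPV6, while the lines overlap at CASP2.

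Of 76 other tested genes within 100 kb of one of the 31, 1 was called higher than K562 at 2-fold (1.32%) and 1 lower, and within 1 Mb 5 of 527 were higher (0.949%), against 0.805% of all genes tested. At an adjusted p under 0.1 regardless of size, 9 of the 76 were higher (11.8%, against 4.86% of all genes), KEL, SLCO2B1, RNF144A and CDC42EP3 among them, and 4 were lower (5.26%, against 7.79%). Of the 9, RNF144A and CDC42EP3 overlap one of the 31 on the opposite strand. Without K562 replicate 1 the count was 14 (18.4%, against 9.56%). The one called higher at 2-fold within 100 kb was SLCO2B1, a transporter gene 3.69 kb from OR2AT4, at 1.08 CPM in parental K562, 3.86 CPM in K/VP.5 and 4.23 CPM in the edited cells (log2 fold change 1.98 over K562, edgeR adjusted p = 1.67e-04). The gene called lower was MAGEB1, 23.6 kb from MAGEB2.

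Genes of nerve, muscle and germ line were also among the 31. SYP, which encodes synaptophysin of synaptic vesicles, had 15.2, 17.4, 17.2 and 15.3 CPM in parental K562, 12.6, 16.2, 15.1 and 14.8 CPM in K/VP.5 and 37.9, 32.8, 33.5 and 33.2 CPM in the edited replicates. K562 and K/VP.5 overlapped, and K562/SSedit-2 was 2.11-fold over K562. Of 16 axon and synapse genes tested, 1 was called higher, SYP, whose call the rule fixed, and 1 lower, against 0.805% and 1.26% of all genes. The lower one was NLGN1, which encodes the synaptic adhesion protein neuroligin, at 0.214 ± 0.066 CPM in K562 and 0.007 ± 0.014 CPM in K562/SSedit-2 cells (edgeR adjusted p = 8.93e-04). SYNGR1, a vesicle protein from a separate list of relatives of SYP, was also lower (log2 fold change -1.09, adjusted p = 0.00218). RYR2 was at 0.682 ± 0.092 CPM in parental K562, 0.287 ± 0.048 CPM in K/VP.5 and 1.79 ± 0.219 CPM in the edited cells. ITPR2, an inositol trisphosphate receptor of the same channel superfamily, differed by 0.91 (adjusted p = 1.13e-05) and RYR1 by -0.47 (adjusted p = 0.00146).

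MAGEB2, a cancer-testis antigen gene on chromosome X, had 9.30, 9.94, 8.78 and 9.65 CPM in parental K562, 1.95, 1.92, 2.03 and 2.45 CPM in K/VP.5 and 19.4, 21.3, 21.6 and 21.7 CPM in the edited replicates. The lines were separate and the spread within each was small. Its neighbour and relative MAGEB1 went the other way, at 0.344 ± 0.130 CPM in parental K562, 0.335 ± 0.085 CPM in K/VP.5 and 0.021 ± 0.014 CPM in the edited cells (edgeR adjusted p = 4.17e-04). Of 28 genes of cancer-testis families tested, 2 were higher (MAGEB2, whose call the rule fixed, and GAGE12H) and 5 lower than K562 at 2-fold, against 0.805% and 1.26% of all genes.

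NDRG1, a gene induced by hypoxia and other stress, had 29.8, 23.05, 23.7 and 21.9 CPM in parental K562, 12.8, 19.96, 13.5 and 12.5 CPM in K/VP.5 and 56.2, 50.8, 55.9 and 55.1 CPM in the edited replicates. The K562/SSedit-2 values lay close together, and K/VP.5 replicate 2 approached the K562 range. NDRG2, NDRG3 and NDRG4 differed by 0.20, -0.14 and -0.33 on the log2 scale from K562, and none of the 3 passed the edgeR test (adjusted p = 0.113, 0.531 and 0.353), though NDRG2 did with the replicate block (adjusted p = 0.058).

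LXN, an inhibitor of carboxypeptidases, was at 3.36 ± 0.863 CPM in parental K562, 0.957 ± 0.105 CPM in K/VP.5 and 6.99 ± 1.02 CPM in the edited cells. NT5DC4 was at 5.18 ± 0.515, 2.08 ± 0.414 and 10.4 ± 1.54 CPM in the same order, 2.01-fold over K562 and the gene nearest to that limit. On the opposite strand LXN overlaps GFM1, at 152 CPM in K562 and 171 CPM in K562/SSedit-2 cells, and NT5DC4 overlaps CKAP2L, at 17.5 and 18.1 CPM, so the counts of both are uncertain where strand was not used. The cytoskeletal adaptor TNS1, at 0.817 ± 0.077, 0.810 ± 0.038 and 2.32 ± 0.452 CPM, differed little between the other lines. BEND7 had the tightest K562/SSedit-2 values, 2.19 to 2.29 CPM, at 2.12-fold over K/VP.5. RHOBTB1, an atypical GTPase gene, was at 0.638 ± 0.211 CPM in K562 and 1.54 ± 0.187 CPM in K562/SSedit-2 cells, with 8 counts in all 4 K/VP.5 samples together. NPIPA3, one of a family of near-identical copies, was at 0.747 ± 0.085, 0.695 ± 0.181 and 1.89 ± 0.184 CPM, and its count is uncertain for that reason.

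Of the non-coding genes, AFAP1-AS1 was the most abundant, with 16.7, 13.3, 16.4 and 15.05 CPM in parental K562, 0.426, 0.495, 0.323 and 0.380 CPM in K/VP.5 and 32.8, 29.7, 30.7 and 34.4 CPM in the edited replicates. It was 2.08-fold over K562 and 78.6-fold over K/VP.5, where it had 57 counts in all. AFAP1, the gene it overlaps on the opposite strand, was at 0.318 CPM in parental K562, 0.372 CPM in K/VP.5 and 0.450 CPM in the edited cells and did not pass the edgeR test (adjusted p = 0.396). LINC02525 had 88, 4 and 195 counts and CDC42EP3-AS1 100, 5 and 184 counts summed over the 4 samples of the lines in the same order. CDC42EP3-AS1 was the gene with the narrowest gap, at 0.781, 0.641, 0.596 and 0.500 CPM in K562 and 2.16, 1.30, 0.865 and 0.823 CPM in K562/SSedit-2 replicates, with replicate 1 highest in both lines. CDC42EP3 on the opposite strand was at 1.10 CPM in parental K562, 0.107 CPM in K/VP.5 and 1.80 CPM in the edited cells, a log2 fold change of 0.72 over K562 (adjusted p = 0.0484).

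GRASLND (0.446, 0.225 and 1.09 CPM), LINC02772 (0.762, 0.655 and 1.69 CPM) and TAT-AS1 (1.78, 1.38 and 3.67 CPM) were weaker cases, given as means of the parental, K/VP.5 and edited samples in that order. GRASLND overlaps RNF144A on the opposite strand, which went from 5.20 to 9.13 CPM between K562 and K562/SSedit-2 cells (log2 fold change 0.82, edgeR adjusted p = 1.37e-04), and TAT-AS1 overlaps ZNF19. The RNA gene named Metazoa_SRP (0.633, 0.078 and 1.40 CPM) belongs to a sequence family with many copies. ENSG00000253483 (0.501, 0.189 and 1.26 CPM) is annotated as a processed pseudogene, and its copies elsewhere were not examined. The treatment of reads with several matches is not given, so both counts are uncertain. OR2AT4, an olfactory receptor gene (1.96, 1.10 and 4.46 CPM), and the long non-coding RNA gene ENSG00000284722 (0.866, 0.601 and 2.35 CPM) overlap on the same strand of chromosome 11, so their counts may not be independent. In all, 10 of the 31 overlap an annotated gene with at least 0.1 CPM in a line.

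The promoters of 18 of the 31 genes were in the RefSeq table, which holds windows of 27305 genes. SLC4A1 and TRBC1 were among the genes without a window. The motif GGGCGG, bound by SP1, was in 12 of the 18 windows (66.7%) against 44.6% of all genes, and CCAAT, bound by NFY, in 3 (16.7%) against 35.7%. The AP-1 motif (TGANTCA) was in 2 windows (MAGEB2 and SYP, 11.1% against 7.76%), CCGGAAG (ETS factors) in 2 (ITGB5 and LXN, 11.1% against 10.7%) and TATAAA in 1 (LXN, 5.56% against 11.95%). The motif AGATAA of GATA-binding factors was in 0 windows, against 10.5% of all genes. The E-box CACGTG was likewise in 0, against 7.44%, as was the cyclic AMP response element TGACGTCA, against 1.98%. With only 18 windows, nothing is read from these counts of 0. The interferon-stimulated response element was added after the genes were known and was found in OAS3 alone (5.56% against 3.65%). Motifs were searched on both strands. The median GC content was 61% in the 18 windows and 58.3% in all, and the windows with the SP1 motif ranged from 48% (EPHB6) to 88% (BEND7).

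No motif was shared by all 18 windows, as 3 of them show. The TSPAN5 window (chr4:98658562-98658861, minus strand, 78.3% GC) holds GGGCGG many times, the OAS3 window (chr12:112938224-112938523, plus strand) holds the response element and GGGCGG, and the CD53 window (chr1:110870960-110871259, plus strand, 45.7% GC) holds none of the motifs. Capitals mark the matches.
TSPAN5: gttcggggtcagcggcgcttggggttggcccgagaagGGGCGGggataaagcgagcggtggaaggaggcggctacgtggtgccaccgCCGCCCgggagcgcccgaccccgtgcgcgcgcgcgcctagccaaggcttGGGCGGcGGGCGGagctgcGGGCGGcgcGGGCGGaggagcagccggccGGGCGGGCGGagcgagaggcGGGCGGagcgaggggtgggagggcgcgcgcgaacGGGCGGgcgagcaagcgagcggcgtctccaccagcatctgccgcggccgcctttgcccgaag
OAS3: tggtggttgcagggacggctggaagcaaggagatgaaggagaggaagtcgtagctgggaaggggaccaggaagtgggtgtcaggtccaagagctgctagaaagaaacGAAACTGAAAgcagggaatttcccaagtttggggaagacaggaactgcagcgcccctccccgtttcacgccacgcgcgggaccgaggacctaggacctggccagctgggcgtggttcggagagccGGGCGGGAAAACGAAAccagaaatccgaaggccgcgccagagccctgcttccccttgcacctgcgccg
CD53: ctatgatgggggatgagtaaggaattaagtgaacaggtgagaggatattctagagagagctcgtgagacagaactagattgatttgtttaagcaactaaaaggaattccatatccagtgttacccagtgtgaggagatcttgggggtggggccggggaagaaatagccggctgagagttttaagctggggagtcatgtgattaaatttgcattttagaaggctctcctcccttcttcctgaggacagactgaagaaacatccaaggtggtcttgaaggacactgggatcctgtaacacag

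The 31 genes were also placed against sequences that resemble the target of sgRNA-1. The guide was scanned over GRCh38 with up to 4 mismatches and an NGG motif, which gave 135 sites outside the target, 9 with 3 mismatches and 126 with 4. Of the 31 genes, 0 had a site inside, against 0.221% of genes tested, and 0 within 100 kb, against 1.03%. Within 1 Mb there were 4 (RYR2, IL1RAP, TAT-AS1 and ITGB5), against 8.38%. The nearest was a site 179.5 kb from RYR2, at chr1:238013525-238013547 on the plus strand, printed after the guide with its mismatches in capitals and the NGG at its end. Whether any such site was cut was not tested.
sgRNA-1: gtcttcttatcatcatggtg
RYR2 site: gtcttctCatGatTatgCtgagg

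The limits of the rule decided some members. Of genes that failed only the level, CASC15 (0.944 CPM), PAEP (0.811 CPM) and PASD1 (0.760 CPM) were nearest below 1 CPM, and TRPV6 (1.15 CPM) and CMKLR1 (1.23 CPM) just above GRASLND inside it. For the fold over K562, NT5DC4 (2.01), CDC42EP3-AS1 (2.04) and TAT-AS1 (2.05) were just inside, and BCAS1 (1.97), NRIP3 (1.96) and ANKRD62 (1.89) just outside. For the fold over K/VP.5, BEND7 (2.12), SYP (2.34) and IL1RAP (2.57) were just inside, and HBM (1.89), C3orf52 (1.66) and OPTN (1.56) just outside. For the ratio of K/VP.5 to K562, PELI2 (1.87), TSPAN5 (1.49) and BEND7 (1.47) were inside and ENSG00000280441 (2.15) outside, and 0 genes failed only the condition on overlap.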

How the data were processed

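RNA was sequenced from 12 samples, 4 of each line. Reads (paired, 150 bp) were mapped by the authors with HISAT2 to the GRCh38 build, and the authors deposited whole-number counts per gene from featureCounts, without normalization. The annotation release, the strand setting and the treatment of reads with several matches are not given in the sources used here, so counts of overlapping genes and of gene copies are uncertain. Total counts ranged from 28981722 to 43648830, so that 3 counts equal 0.0687 to 0.104 CPM.

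Here, CPM used the total count of each column. Genes passing filterByExpr (minimum count 10), 18626 in number, were fitted with edgeR 4.0.16 in R 4.3.3 (TMM, all 12 samples by line, quasi-likelihood F test, Benjamini-Hochberg adjustment) and called at 2-fold and adjusted p under 0.1. Standard errors are the log2 fold change over the square root of F. TOP2A was also compared by a two-sided exact permutation test of mean CPM (p = 0.0286, the smallest that 4 against 4 allows). The steps were tested on simulated data. Positions and gene types came from GENCODE 44, which held 60401 of the 60671 gene IDs, and CPM per kb used the union of annotated exons. Tables were handled in Python 3.11.15 with pandas 2.3.3, scipy 1.17.1 and matplotlib 3.10.9.

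The members, the 30 gene lists and the tests were chosen with earlier results of these data known. The 26 lists of relatives, the red cell membrane list among them, were written after the members were known. Members named are the 20 highest by fold and by level, those near another member or on a list, and those next to a limit of the rule, and together these cover all 31. Other genes named are TOP2A, the tetraspanins, list genes past the threshold and genes next to a limit, and beyond these, neighbours and relatives were named after their values were seen. Some list genes are counted but not reported here by name. The counts at any size without K562 replicate 1, and those of neighbours at any size, were added after the data were seen.

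Replicate numbers come from the sample titles. Deviations of same-numbered K562/SSedit-2 and K562 samples from their line means correlated across genes at r = 0.29, 0.14, 0.25 and 0.14. Unlike-numbered samples of these lines gave -0.31 to 0.13. Same-numbered samples gave 0.16, 0.09, -0.03 and -0.09 for K562/SSedit-2 and K/VP.5, and 0.27, 0.04, -0.003 and 0.12 for K/VP.5 and K562. Pairing by number is thus uncertain, above all for K/VP.5, and a fit with the number as a block was run as an alternative. Other alternatives were RLE scaling, DESeq2 1.42.0 (Wald test), limma 3.58.1 voom, no filter, a filter of 1 CPM in 4 samples, the compared lines alone, an adjusted p under 0.05, each replicate left out, and other limits in the rule.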

Additional observations from a re-analysis of the deposited data

Results flagged for a closer look

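In each line the highest or lowest of the 4 samples was compared with the others for all 31 genes, 93 groups in all, by Dixon's ratio of the gap to the range at its 95% critical value. Chance marks about 1 in 20 such groups, and 7 of the 93 passed. CD53 was highest in K562 replicate 1, at 23.1 CPM against 13.0 to 14.2 CPM in the others, and this is the replicate that stood apart over all genes. TAT-AS1 was highest in K562 replicate 2, at 2.04 CPM against 1.68 to 1.72 CPM. NDRG1 was highest in K/VP.5 replicate 2, at 19.96 CPM against 12.5 to 13.5 CPM. OR2AT4 was lowest in K/VP.5 replicate 4, at 0.966 CPM against 1.13 to 1.15 CPM, and ENSG00000253483 in K/VP.5 replicate 1, at 0.125 CPM against 0.206 to 0.220 CPM. In K562/SSedit-2 replicate 1, SYP was highest, at 37.9 CPM against 32.8 to 33.5 CPM, and MAGEB2 was lowest, at 19.4 CPM against 21.3 to 21.7 CPM.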

How the results depend on the processing

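The alternative fits gave 586 log2 fold changes over K562, counted per gene and fit, and all were positive. These fits used the same samples or a part of them, so the values are not independent. The largest shift was to 1.89 for IL1RAP without K562 replicate 1, and 11 values, of CDC42EP3-AS1, LXN, NT5DC4 and TAT-AS1, were under 1, the lowest 0.67 for CDC42EP3-AS1 without K562/SSedit-2 replicate 1. The rule gave the same 31 genes with TMM-scaled CPM, 32 with RLE scaling (FRMD5 added), 19 with a minimum of 2 CPM and 5 at 3-fold, and 29 to 35 with a replicate left out. Of the 31, 28 to 31 stayed past the threshold in both comparisons with a replicate left out, and 30 with the replicate block, where CDC42EP3-AS1 was at 0.98. Beside the values given with the results, the block changed no other call of a gene named here.

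A filter of 1 CPM in 4 samples lowered the genes called between K562/SSedit-2 and K562 from 384 to 246 and between K/VP.5 and K562 from 2914 to 1923, since fewer genes are tested. Leaving out a replicate gave 330 to 466 and 2975 to 3123, and 3018 to 3135 between K562/SSedit-2 and K/VP.5. TOP2A lay between -1.12 and -0.96 with a replicate left out, and under 2-fold without K562 replicate 1 (-0.96, edgeR adjusted p = 2.08e-08, against the fitted -1.07). The 30 lists written before the lists of relatives held 71 distinct genes called between K562/SSedit-2 and K562, and 63 to 81 with a replicate left out. At low counts, as in K/VP.5 for LINC02525, RHOBTB1 and CDC42EP3-AS1, depth limits the ratio to that line.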
